A study of Homo sapiens with 10 samples.

Results

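SRC, the related kinases YES1, FYN and LYN, their inhibitory kinase CSK, the focal adhesion kinase PTK2 and the docking protein BCAR1 were examined through H3K27ac, a histone H3 mark (acetylated lysine 27) found at active promoters and active enhancers. Every row of the annotated count table that carried 1 of these 7 gene symbols was taken, whatever its values. This gave 64 regions of 502 bp, out of 67387 annotated regions and 169637 counted regions. BCAR1 had 23 of them, LYN and PTK2 had 15 each, SRC had 5, and YES1, FYN and CSK had 2 each. Of the 64 regions, 28 were in the promoter class within 1 kb of a transcription start site (TSS), 7 lay in the promoter classes from 1 to 3 kb and are called promoter flanks here, and 29 were distal, that is, in introns, exons, downstream of a gene or between genes. A region belongs to a gene here only because the annotation paired them, and regions of 1 locus share chromatin and are not replicates of each other.

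SRC-family kinases are tyrosine kinases held at the inner face of the plasma membrane, where they pass on signals from growth factor receptors and integrins. CSK keeps them inactive by phosphorylating a tyrosine in their tail. At focal adhesions, integrin clustering activates the focal adhesion kinase FAK, the product of PTK2. FAK then binds SRC, and the pair phosphorylates scaffolds such as p130Cas, the product of BCAR1, which links adhesion to cell movement and survival. This module is known in lung cancer as a route of signalling that can run beside EGFR.

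The cells were H1975, an established human lung adenocarcinoma line that carries mutant EGFR, so all groups stand for 1 line. DMSO cells were grown for 21 days without drug and for 3 days with DMSO. Osimertinib DTP cells, the drug-tolerant persisters that remain under the EGFR inhibitor osimertinib, were kept at 500 nM for 24 days. The osimertinib DTP + AZD5153 cells, called the combination here, were kept at 500 nM osimertinib for 21 days and then received 150 nM AZD5153, a bivalent inhibitor of BET bromodomains, for 3 days. The labels do not say whether osimertinib was continued in those days. Each group had 3 replicate libraries, and there was 1 pooled input library. Each library came from many cells, so fewer cells with the mark and less of it per cell cannot be told apart.

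Total counts were 6263443 to 10463351 per H3K27ac library. Osimertinib DTP replicate 2 and combination replicate 3 stood apart from the rest, with 59.8% and 66.7% of annotated counts at promoters within 1 kb against 40.3% to 45.9% in the other libraries. Combination replicate 3 also had the lowest total count, and its Spearman coefficient with the other replicates of its group was 0.445 and 0.367, where theirs with each other was 0.888. Results that rest on these libraries are therefore also given without them. All 5 epithelial markers and all 3 lung markers had a promoter region, and the leukocyte markers PTPRC and CD3E had none. The summed promoter level of the fibroblast markers, of which 3 of 4 had a region, was 45.2 to 106 counts per 1000000 counts (CPM) in the DMSO libraries, 176 to 227.8 CPM under osimertinib and 166.2 to 308.5 CPM with the combination. The part of these markers in the results below was not tested.

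All 64 regions passed the filter on low counts. Called means an adjusted p under 0.05 in edgeR's quasi-likelihood test, adjusted over all 157919 tested regions. In osimertinib DTP against DMSO, 3 of the 64 regions were called higher (4.69%, against 5.58% of all tested regions) and 11 were called lower (17.2%, against 5.13%). The higher calls were both regions of FYN and 1 promoter region of LYN. The lower calls were 10 regions of PTK2 and 1 of BCAR1, and no region of SRC, YES1 or CSK was called. Of all tested annotated regions, 6.98% were called higher and 7.22% lower, and of annotated non-promoter regions 9.79% and 10.8%. The median log2 fold change was 0.15 over the members and also 0.15 over all tested regions. The replicates of both groups did not overlap at 20 member regions that were higher (31.2%, against 20.2% of all) and at 13 that were lower (20.3%, against 18.9%).

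Against DMSO, 4 regions of the combination were called higher (6.25%, against 9.05%) and 4 lower (6.25%, against 9.01%). Both FYN regions, the same LYN promoter region and 1 intronic region of PTK2 were higher. Of the lower regions, 3 belonged to PTK2 and 1 to BCAR1. Of all tested annotated regions, 10.7% were called higher and 11.1% lower in this comparison. Replicates did not overlap at 9 regions that were higher (14.1%, against 14.4%) and 8 that were lower (12.5%, against 19%), so by this measure the members were at or under the share of all regions. In the combination against osimertinib DTP, edgeR called 0 of the 64 regions and 0 of all tested regions (a share of 0), with 4 member regions and 7013 of all regions at an unadjusted p under 0.05. Under voom in limma with library quality weights, 1 member region was called higher (1.56%, against 1.88% of all) and 5 lower (7.81%, against 1.79%) in that comparison. Replicates did not overlap at 6 member regions that were higher in the combination (9.38%, against 2.83% of all) and at 2 that were lower (3.12%, against 5.4%).

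**Figure D1:**
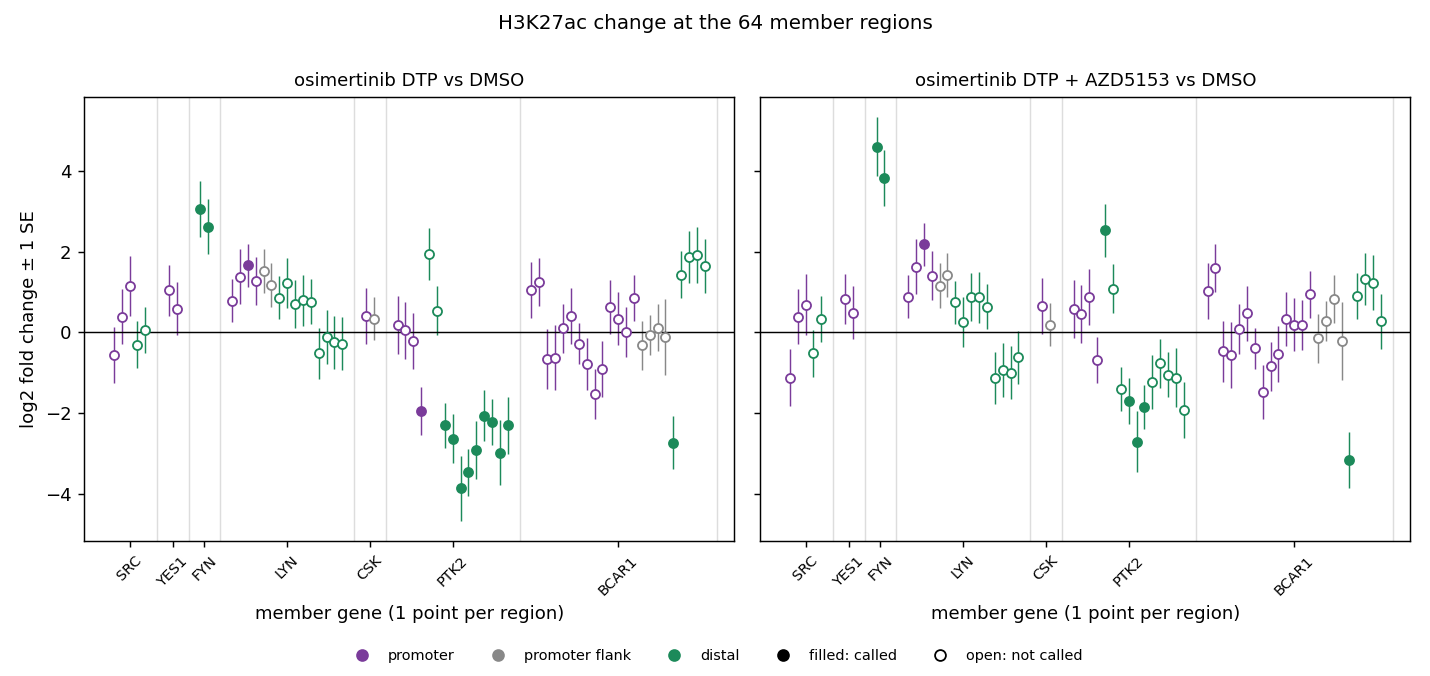
The log2 fold change of H3K27ac at each of the 64 regions is plotted with 1 standard error (SE) on the y axis, grouped by gene on the x axis, for osimertinib DTP against DMSO (left) and the combination against DMSO (right). Both comparisons use the same DMSO libraries. Filled points were called. The FYN points lie highest, the run of distal PTK2 points lies lowest on the left, and the SRC, YES1 and CSK points are open in both panels.

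How firmly these counts stand depended on single libraries. Without DMSO replicate 2, 0 member regions were called higher and 1 lower (1.56%) in osimertinib DTP. Of all regions tested in that fit, 0.407% were called higher and 0.294% lower. Without combination replicate 3, which is in neither group of that comparison but enters the shared estimate of the spread, 13 were called higher (20.3%, against 14.2% of all regions tested in that fit) and 12 lower (18.8%, against 12.7%). With replicate 3 of the combination left out, 11 were called higher (17.2%, against 18.4%) and 16 lower (25.0%, against 17.3%) in the combination against DMSO. Without DMSO replicate 2, 2 were higher (3.12%, against 2.4%) and 1 lower (1.56%, against 2.76%) in that comparison. When osimertinib DTP replicate 2 and combination replicate 3 were both left out, 13 members were called higher and 14 lower in osimertinib DTP, beside 14.95% and 11.99% of all regions tested in that fit.

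FYN, a kinase of the family that acts downstream of integrins and immune receptors, had the highest fold changes of the 7 genes. Its 2 annotated regions lie on chromosome 6 (hg38) at chr6:111657495-111657996 and chr6:111658179-111658680, which is 2336 bp and 1652 bp past the end of the gene as RefSeq gives it. The next coding gene in RefSeq, TRAF3IP2, is at least 51617 bp away. At the first region DMSO had counts of 9, 4 and 5, osimertinib DTP of 61, 41 and 34, and the combination of 183, 180 and 21, with 4 in the input. At the second they were 5, 1 and 4, then 25, 15 and 17, then 58, 43 and 18, again with 4 in the input. Every drug-treated library was above every DMSO library at both regions, and combination replicate 3 was the lowest of its group in raw counts.

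On the CPM scale, with library sizes scaled by the trimmed mean of M-values (TMM), the 2 FYN regions together had 0.897 ± 0.377 CPM (SD, n = 3) in DMSO, 7.05 ± 1.67 in osimertinib DTP and 19.2 ± 10.1 in the combination. In osimertinib DTP the log2 fold change was 3.07 ± 0.70 (SE) at the first region (edgeR adjusted p = 0.0118) and 2.63 ± 0.68 at the second (edgeR adjusted p = 0.0218). In the combination it was 4.61 ± 0.72 (edgeR adjusted p = 0.00144) and 3.83 ± 0.69 (edgeR adjusted p = 0.00227). The combination exceeded osimertinib DTP by 1.54 and 1.21 on the log2 scale, and neither difference was called. No DMSO library had a peak at either region in its own peak list, whereas 3 and 2 osimertinib DTP libraries and all 3 combination libraries did. These peaks come from the same libraries and are not separate evidence. All DMSO counts were under the filter's minimum count of 10, so both regions passed it through the drug-treated libraries. In osimertinib DTP the call at the first region was lost without DMSO replicate 2 (edgeR adjusted p = 0.0918) or DMSO replicate 3 (edgeR adjusted p = 0.0786), and that at the second without any 1 of the 6 libraries compared (edgeR adjusted p from 0.0555 to 0.132). The calls in the combination held whichever library was left out.

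FYN had no annotated promoter region. Of the whole count table, 6 regions lie within the FYN gene, none of which was annotated to any gene. The one at the start of the gene, chr6:111873048-111873549, overlaps the most GC-rich of the 4 FYN promoters that RefSeq lists. It had 0.603 to 1.03 CPM in DMSO, 0.669, 8.49 and 1.51 CPM in osimertinib DTP and 1.10, 1.28 and 6.18 CPM in the combination. The 2 libraries with high values were those with the raised promoter share, and the other 7 were at or below 1.51 CPM. Further inside the gene, the region chr6:111823567-111824068 was called higher in the combination, where it had 5.01, 7.10 and 0.580 CPM against 0.363, 0.723 and 0.402 CPM in DMSO, so that replicate 3 lay within the DMSO range. It was named after its values were seen. Of the 2 RefSeq promoters of FYN that overlap the region at the start, the more GC-rich one is shown. It is the 250 bases before the TSS on the minus strand at chr6:111873072-111873321 (GRCh38.p14, RefSeq), with the letters GGGCGG or CCGCCC, the core bound by SP and KLF factors, in capitals. These letters occur in 42.6% of all 35116 RefSeq promoters of that length, and they occur 8 times here.
FYN: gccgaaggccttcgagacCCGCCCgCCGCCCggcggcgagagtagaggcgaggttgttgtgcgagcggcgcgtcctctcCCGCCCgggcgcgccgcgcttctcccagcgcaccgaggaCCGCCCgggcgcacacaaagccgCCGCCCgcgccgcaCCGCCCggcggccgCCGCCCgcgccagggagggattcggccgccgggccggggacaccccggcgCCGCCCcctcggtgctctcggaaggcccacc

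LYN, a kinase of the family best known from blood cells and also made in epithelial cells, carried H3K27ac at both of its start sites. Its highest promoter region is chr8:55939376-55939877, 357 bp before the inner start. It had 14.6, 9.91 and 7.95 CPM in DMSO, 29.0, 52.2 and 21.8 CPM in osimertinib DTP and 44.4, 40.8 and 62.2 CPM in the combination. All 6 drug-treated libraries were above all DMSO libraries. The log2 fold change was 1.66 ± 0.53 (SE) in osimertinib DTP (edgeR adjusted p = 0.0497) and 2.18 ± 0.53 in the combination (edgeR adjusted p = 0.0105). The first call rested at the threshold and was lost when 8 of the 9 libraries were left out in turn, the exception being combination replicate 3, with edgeR adjusted p from 0.0518 to 0.248. In the combination the call was lost without DMSO replicate 2 (edgeR adjusted p = 0.0729) or DMSO replicate 3 (edgeR adjusted p = 0.0837).

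The other 3 LYN promoter regions had log2 fold changes of 0.78 to 1.39 in osimertinib DTP and 0.89 to 1.63 in the combination, none called on its own. When the counts of all 4 were summed, the LYN promoter level was 93.7 ± 18.9 CPM (SD, n = 3) in DMSO, 193 ± 23.9 in osimertinib DTP and 221 ± 24.3 in the combination, scaled to the counts at promoters. This sum was called higher in osimertinib DTP (log2 fold change 1.04 ± 0.19 SE, edgeR adjusted p = 0.0147) and in the combination (1.24 ± 0.19 SE, edgeR adjusted p = 0.00448). Among all 12295 genes with a tested promoter sum, 2.8% were called higher and 3.35% lower in osimertinib DTP, and 6.89% higher and 7.04% lower in the combination, while 0 of them were called in the combination against osimertinib DTP. LYN was the only 1 of the 6 member genes with a promoter sum to be called in these fits. Its osimertinib DTP call was lost without DMSO replicate 2 (edgeR adjusted p = 0.0697) or DMSO replicate 3 (edgeR adjusted p = 0.0692).

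Within the LYN gene the signs of the distal fold changes differed along the gene. Around the inner start and up to 16154 bp from the nearest start, 8 neighbouring LYN regions, its highest promoter region among them, summed to 49.9 ± 5.87 CPM (SD, n = 3) in DMSO, 107 ± 8.04 in osimertinib DTP and 120 ± 13.1 in the combination, and all 8 had positive log2 fold changes in both drug groups. Deeper in the gene, 4 neighbouring regions between 33877 and 35816 bp from the nearest start had negative ones, from -0.51 to -0.12 in osimertinib DTP and from -1.13 to -0.62 in the combination, none called. There the libraries of each group varied widely, with summed levels of 28.6, 80.3 and 53.1 CPM in DMSO, 24.0, 47.2 and 60.9 CPM in osimertinib DTP and 15.4, 61.2 and 13.3 CPM in the combination. Both runs of regions were set apart after their values were seen. Another 5 annotated regions inside LYN were paired with SNORA1B, a small RNA gene, and are not among the 64.

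SRC, the founding kinase of the family, had 3 promoter regions and 2 distal ones, none of them called. At its highest promoter region, chr20:37345663-37346164, it had 7.71, 8.36 and 7.14 CPM in DMSO, 6.12, 19.5 and 4.93 CPM in osimertinib DTP and 5.61, 3.84 and 21.3 CPM in the combination. The 2 high values again belonged to the libraries with the raised promoter share, and the other drug-treated libraries were below all DMSO libraries. The log2 fold change was 0.39 ± 0.68 (SE) in each drug group, with edgeR adjusted p of 0.788 and 0.745, and it turned negative in both without both libraries of raised promoter share (-0.46 and -0.64). At the neighbouring promoter region, chr20:37346665-37347166, all osimertinib DTP libraries, at 10.2, 6.82 and 6.75 CPM, were above the DMSO libraries, at 5.08, 1.86 and 3.72 CPM, while the combination had 2.50, 0.931 and 14.1 CPM. The osimertinib DTP difference at that region was not called (log2 fold change 1.15 ± 0.75 SE, edgeR adjusted p = 0.366). Scaled to promoter counts, and so not on the scale of the single regions, the summed promoter level was 53.0 ± 11.7 CPM (SD, n = 3) in DMSO. It was 58.5 ± 15.6 in osimertinib DTP and 36.2 ± 24.3 in the combination. In the latter, replicates 1 and 2 had 27.1 and 17.7 CPM and replicate 3 had 63.7 CPM. At the highest distal region of SRC, 296 bp past the end of the gene at chr20:37406346-37406847, the log2 fold changes were 0.07 and 0.34.

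Without both libraries of raised promoter share, 1 SRC region was called higher in osimertinib DTP, 1 lower in the combination against DMSO and 2 lower in the combination against osimertinib DTP. The shares of all regions called in that fit were 14.95%, 19.8% and 0.982%, in the same order. That fit was chosen after the data had been seen.

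YES1, a close relative of SRC, had 2 promoter regions and no other region. The higher one, chr18:812354-812855, had 16.96, 19.8 and 14.7 CPM in DMSO, 14.3, 54.1 and 8.96 CPM in osimertinib DTP and 13.1, 15.5 and 43.7 CPM in the combination. Apart from the same 2 libraries, no drug-treated library reached the DMSO mean of this region. The log2 fold change in osimertinib DTP was 0.59 ± 0.66 (SE, edgeR adjusted p = 0.643), and it turned to -0.50 without osimertinib DTP replicate 2. Summed over both regions and scaled to promoter counts, YES1 had 85.0 ± 11.2, 101 ± 27.5 and 88.7 ± 25.6 CPM (SD, n = 3) in DMSO, osimertinib DTP and the combination. The RefSeq promoter of YES1 (minus strand, chr18:812243-812492) overlaps the higher region, and it is shown as the promoter of a member whose level did not separate the groups. Capitals mark 3 SP and KLF cores (GGGCGG or CCGCCC) and 1 ETS core (CCGGAAG or CTTCCGG), which 8.52% of all RefSeq promoters hold. It holds 32 CpG dinucleotides, against a median of 11.
YES1: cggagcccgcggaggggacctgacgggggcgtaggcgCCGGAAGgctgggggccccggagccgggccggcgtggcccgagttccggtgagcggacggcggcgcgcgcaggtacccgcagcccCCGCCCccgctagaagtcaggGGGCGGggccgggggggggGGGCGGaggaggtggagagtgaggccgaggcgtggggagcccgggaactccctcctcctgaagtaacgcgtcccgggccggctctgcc

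CSK, the kinase that restrains the SRC family, had 1 promoter region and 1 promoter flank. The promoter region chr15:74782753-74783254 had 7.53, 4.13 and 6.34 CPM in DMSO, 8.22, 9.05 and 6.55 CPM in osimertinib DTP and 4.61, 2.09 and 22.2 CPM in the combination. At this region the groups overlapped in every comparison. The log2 fold change was 0.40 ± 0.69 (SE) in osimertinib DTP (edgeR adjusted p = 0.784) and 0.66 ± 0.69 in the combination (edgeR adjusted p = 0.558), and the latter turned to -0.84 without combination replicate 3. At the flank, DMSO had 6.17, 6.92 and 6.24 CPM, osimertinib DTP 7.36, 9.32 and 7.85 CPM and the combination 8.32, 10.4 and 3.29 CPM. All osimertinib DTP libraries were above DMSO there, and the difference was not called (log2 fold change 0.34 ± 0.54 SE, edgeR adjusted p = 0.760).

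**Figure D2:**
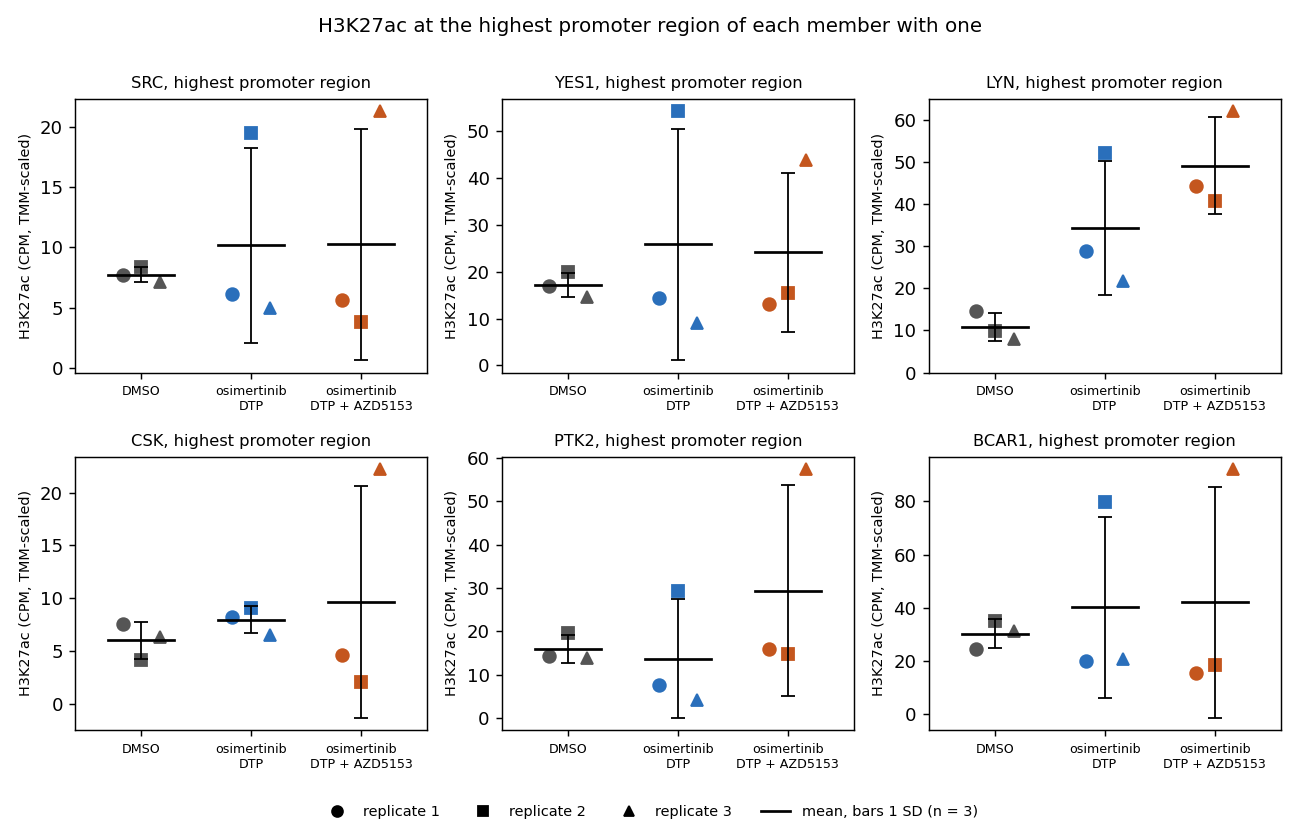
H3K27ac in CPM (y axis) is plotted for each library by group (x axis) at the highest promoter region of the 6 members that have one. Horizontal lines are group means, bars 1 SD (n = 3). In each of the 6 panels osimertinib DTP replicate 2 and combination replicate 3 are the 2 highest points, and LYN is the only panel in which all drug-treated libraries lie above all DMSO libraries.

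The promoter regions also followed the library. At 23 of the 28 member promoter regions (82.1%) the highest of the 9 libraries was osimertinib DTP replicate 2 or combination replicate 3, and this was so at 66.6% of all annotated promoter regions. The highest library was combination replicate 3 at 18 of the 28. The pattern of the SRC promoter sum over the 9 libraries was most like those of GLTPD2, SETD1B and ZNF512B, with Pearson r of 0.977, 0.966 and 0.966 on log2 CPM among 12294 genes. Among the members, r with SRC was 0.920 for CSK, 0.863 for BCAR1, 0.397 for YES1, 0.079 for PTK2 and -0.113 for LYN. These coefficients describe 9 libraries that share 3 groups and differ in promoter share.

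PTK2, which encodes FAK, had the longest run of lower regions. All 9 of its intergenic regions lie upstream of the gene, between 24118 and 41324 bp from its start, in a stretch of 17708 bp on chromosome 8 (chr8:141026334-141044041). No coding gene is annotated in that stretch, and the nearest one other than PTK2 is DENND3, at least 84548 bp away. Parts of it overlap the uncharacterized RNA genes LOC105375783 and LOC124902030. Summed over the 9 regions, H3K27ac was 71.7, 113 and 80.7 CPM in DMSO, 16.3, 21.0 and 8.76 CPM in osimertinib DTP and 31.9, 29.2 and 39.2 CPM in the combination. The 3 groups did not overlap, with osimertinib DTP lowest and the combination between it and DMSO. The DMSO mean was 5.78 times that of osimertinib DTP and 2.65 times that of the combination.

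Each of the 9 regions was called lower in osimertinib DTP, with log2 fold changes from -3.87 to -2.07 and edgeR adjusted p from 0.00371 to 0.0462. In each of them all osimertinib DTP libraries were below all DMSO libraries. The change with the smallest adjusted p was at chr8:141035116-141035617, where DMSO had 9.07, 13.1 and 10.6 CPM, osimertinib DTP 0.956, 1.39 and 0.604 CPM and the combination 2.91, 3.26 and 2.90 CPM (log2 fold change -3.47 ± 0.59 SE in osimertinib DTP). This call held without any single library, the largest edgeR adjusted p being 0.0441 without DMSO replicate 2. The lowest fold change was at chr8:141028158-141028659, at -3.87 ± 0.80 (edgeR adjusted p = 0.00796), where osimertinib DTP had 0.287, 0 and 0.504 CPM. That call was lost without DMSO replicate 2 (edgeR adjusted p = 0.0746). The calls at the other 7 regions were each lost in 3 to 7 of the 9 fits that left out 1 library. Without DMSO replicate 2, 1 of the 9 regions was called lower, beside 0.294% of all regions. Without osimertinib DTP replicate 3, 2 were called lower, beside 0.903% of all regions. With the replicate number as a block, 7 of the 9 were called lower, beside 5.07% of all regions. The highest of the 9 by mean level, chr8:141026334-141026835, had 12.4, 22.3 and 14.9 CPM in DMSO, 3.25, 4.87 and 1.91 CPM in osimertinib DTP and 6.41, 7.21 and 5.03 CPM in the combination.

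For the combination against DMSO all 9 log2 fold changes were negative, from -2.71 to -0.77, and 3 regions were called lower. Each of these 3 calls was lost without DMSO replicate 2 (edgeR adjusted p from 0.113 to 0.174), DMSO replicate 3 (from 0.0719 to 0.118) or combination replicate 1 (from 0.0568 to 0.151). Against osimertinib DTP all 9 were positive in the combination, from 0.38 to 1.86, none of them called, and the replicates did not overlap at 4 of the 9. These comparisons share libraries. Without combination replicate 3, 8 PTK2 regions were called lower in the combination against DMSO, beside 17.3% of all regions. In that fit 10 PTK2 regions were called lower in osimertinib DTP, beside 12.7% of all. The peak lists come from the same libraries and are not separate evidence. Of 27 pairs of region and library in each group, 27 had a peak in DMSO, 6 in osimertinib DTP and 15 in the combination.

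**Figure D3:**
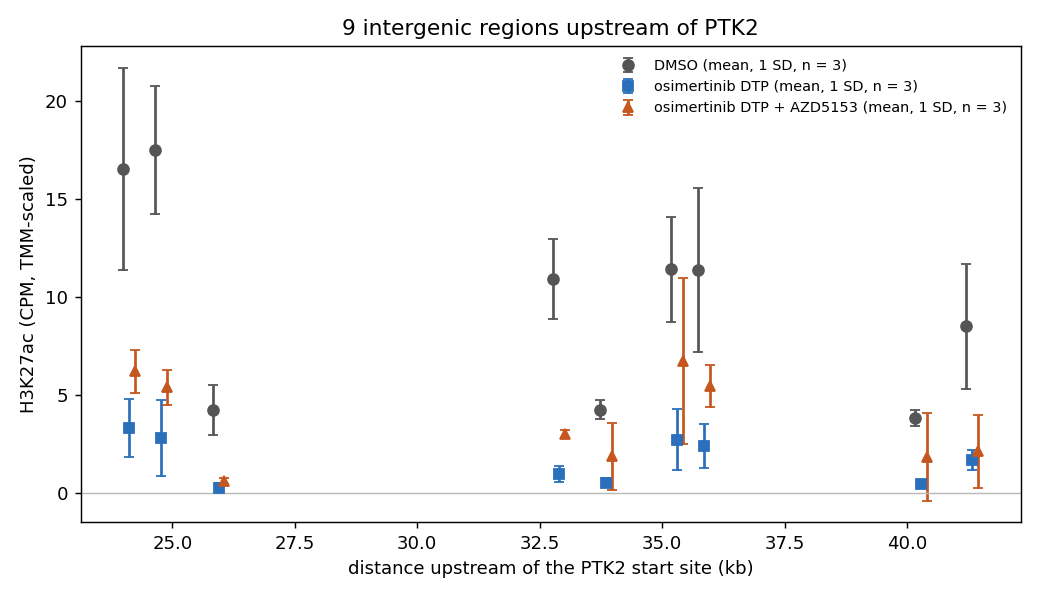
Mean H3K27ac in CPM (y axis, bars 1 SD, n = 3) is plotted for each group at the 9 intergenic regions upstream of PTK2, against the distance from its start site in kb (x axis). DMSO is the highest and osimertinib DTP the lowest at each of the 9 positions, with the combination between them.

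At the PTK2 promoter itself, the highest region, chr8:141001385-141001886, had 14.4, 19.5 and 13.8 CPM in DMSO, 7.74, 29.4 and 4.13 CPM in osimertinib DTP and 15.8, 14.8 and 57.4 CPM in the combination. The groups overlapped, and the log2 fold change was -0.22 ± 0.70 (SE, edgeR adjusted p = 0.895) in osimertinib DTP and 0.88 ± 0.70 (edgeR adjusted p = 0.423) in the combination, the latter -0.06 without combination replicate 3. One promoter-class region at the outer edge, 239 bp before the start, was called lower in osimertinib DTP, with 6.98, 7.64 and 6.03 CPM in DMSO and 2.87, 0.557 and 1.81 CPM in osimertinib DTP (log2 fold change -1.95 ± 0.60 SE, edgeR adjusted p = 0.0460). When 1 library was left out in turn, 7 of the 9 fits lost this call, all but those without combination replicate 2 or 3 (edgeR adjusted p from 0.0561 to 0.175). The PTK2 promoter sum, scaled to promoter counts, had 142 ± 10.1, 87.1 ± 30.3 and 138 ± 56.3 CPM (SD, n = 3) in DMSO, osimertinib DTP and the combination. It was not called. Inside the gene, the intronic region chr8:140791155-140791656 had 1.09, 0.826 and 1.31 CPM in DMSO, 4.21, 4.04 and 4.23 CPM in osimertinib DTP and 6.41, 10.5 and 1.74 CPM in the combination. It was higher in the combination (log2 fold change 2.53 ± 0.65 SE, edgeR adjusted p = 0.0136) and missed the threshold in osimertinib DTP (1.94 ± 0.64 SE, edgeR adjusted p = 0.0606). Leaving out any 1 DMSO library or combination replicate 2 ended the call (edgeR adjusted p from 0.0548 to 0.0832).

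BCAR1, whose product p130Cas is a scaffold phosphorylated by SRC and FAK, held distal regions of both directions on the same side of the gene. At chr16:75273139-75273640, 5086 bp before its start, it had 4.53, 8.26 and 8.15 CPM in DMSO, 1.15, 0.835 and 1.11 CPM in osimertinib DTP and 0.301, 0.465 and 1.74 CPM in the combination. All drug-treated libraries were below all DMSO libraries. Its log2 fold change was -2.73 ± 0.66 (SE) in osimertinib DTP (edgeR adjusted p = 0.0159) and -3.16 ± 0.70 in the combination (edgeR adjusted p = 0.00626). The latter call held without any single library, and the former was lost without DMSO replicate 2, DMSO replicate 3 or any 1 osimertinib DTP library (edgeR adjusted p from 0.0627 to 0.0968). All 3 DMSO libraries and no other library had a peak there.

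Further out, 4 BCAR1 regions between 11250 and 13227 bp from the start summed to 7.35, 13.4 and 13.7 CPM in DMSO, 20.2, 41.7 and 51.3 CPM in osimertinib DTP and 18.2, 40.0 and 12.9 CPM in the combination. All osimertinib DTP libraries were above DMSO, while combination replicate 3 was within the DMSO range. Their log2 fold changes in osimertinib DTP were 1.43 to 1.92, and none was called (edgeR adjusted p from 0.0711 to 0.123). None of the 4 had a peak in any DMSO library, and each had one in all 3 osimertinib DTP libraries. They lie between BCAR1 and CFDP1, the next coding gene, at similar distances from both, so the annotation to BCAR1 is uncertain.

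**Figure D4:**
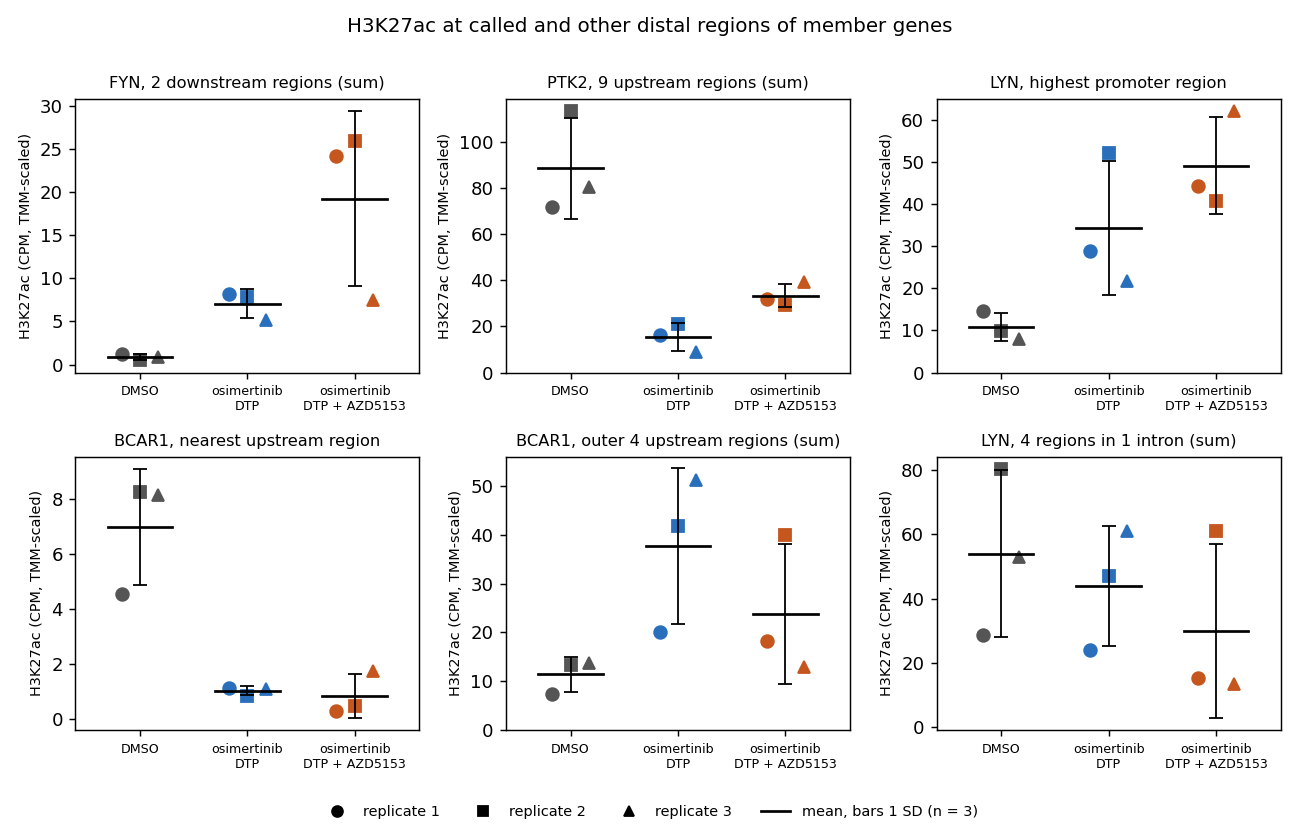
H3K27ac in CPM (y axis) is plotted for each library by group (x axis) at 6 regions or sums of neighbouring regions. Lines are group means, bars 1 SD (n = 3). The drug-treated points lie above the DMSO points for FYN and the LYN promoter, below them for the PTK2 run and the nearest BCAR1 region, and overlap with them in the 4 intronic LYN regions.

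The 14 promoter regions of BCAR1 covered several start sites and varied in both directions, with log2 fold changes from -1.52 to 1.25 in osimertinib DTP and none called. The highest, chr16:75250901-75251402, had 24.4, 35.1 and 31.3 CPM in DMSO, 19.98, 79.6 and 20.6 CPM in osimertinib DTP and 15.5, 18.4 and 92.2 CPM in the combination. Apart from the 2 libraries of raised promoter share, the drug-treated libraries were below DMSO. RefSeq lists 5 BCAR1 promoters. The outermost, on the minus strand at chr16:75268008-75268257, is shown because it is the one nearest to the changed distal regions. It overlaps the member region chr16:75268020-75268521. It was the only 1 of the 11 member promoters in the RefSeq table to hold the AP-1 letters TGACTCA or TGAGTCA, which 4.2% of all promoters hold. They are in capitals.
BCAR1: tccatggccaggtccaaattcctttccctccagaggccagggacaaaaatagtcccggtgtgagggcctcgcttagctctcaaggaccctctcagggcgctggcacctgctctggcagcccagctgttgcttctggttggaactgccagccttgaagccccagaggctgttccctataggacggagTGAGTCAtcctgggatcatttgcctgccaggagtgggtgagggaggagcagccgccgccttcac
That region lies 13 bp outside the gene, just upstream of this start. It had 2.45, 4.75 and 3.92 CPM in DMSO, 5.45, 7.93 and 6.65 CPM in osimertinib DTP and 4.11, 5.12 and 12.4 CPM in the combination. It was not called (log2 fold change 0.85 ± 0.57 SE, edgeR adjusted p = 0.386, in osimertinib DTP).

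Summed per gene, the distal regions of FYN and PTK2 went in the direction of their regions called in osimertinib DTP. The BCAR1 sum went against its 1 called distal region and with its 4 outer regions, none of which was called. In osimertinib DTP, the distal sum of FYN was called higher (log2 fold change 3.01 ± 0.50 SE, edgeR adjusted p = 0.00164), that of BCAR1 higher (1.19 ± 0.40 SE, edgeR adjusted p = 0.0413) and that of PTK2 lower (-1.85 ± 0.34 SE, edgeR adjusted p = 0.00261), whereas SRC (0.001) and LYN (0.40) were not called. Over all 8143 genes with a tested distal sum, 18.6% were called higher and 15.9% lower in this comparison, so calls of this kind were frequent. The FYN and PTK2 calls held without any single library, and the BCAR1 call was lost without any 1 DMSO library, osimertinib DTP replicate 2 or osimertinib DTP replicate 3 (edgeR adjusted p from 0.0653 to 0.168). For the combination against DMSO, 23.7% of genes were called higher and 19.2% lower, FYN was called higher (4.37 ± 0.51 SE, edgeR adjusted p = 0.000305), and PTK2 had -0.75 ± 0.33 (SE, edgeR adjusted p = 0.0909). These sums are scaled to distal counts, which puts combination replicate 3, with its low share of distal counts, at 222 CPM for PTK2 beside 123.1 and 104.4 CPM in the other 2 replicates. No distal sum of any gene was called in the combination against osimertinib DTP.

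Of 49 other genes of the pathway, 30 had a tested distal sum, and 7 of these were called higher (23.3%, against 18.6% of all genes) and 5 lower (16.7%, against 15.9%) in osimertinib DTP. In the combination against DMSO, 9 were called higher (30.0%, against 23.7%) and 5 lower (16.7%, against 19.2%). The genes called higher were focal adhesion adaptors and partners, for 7 and 9 of 23 tested. They included CTTN, the actin-binding substrate of SRC (log2 fold change 3.56 ± 0.49 SE in osimertinib DTP, edgeR adjusted p = 0.000949), GRB2, the adaptor that links kinases to RAS (1.66 ± 0.37 SE, edgeR adjusted p = 0.00658), and PARVB, which binds integrin-linked kinase (1.58 ± 0.44 SE, edgeR adjusted p = 0.0178). Of the 4 regulators of SRC with a distal sum, 3 were called lower in osimertinib DTP, beside 15.9% of all genes, and 2 in the combination, where PAG1 was not (-0.38, edgeR adjusted p = 0.319). The 3 were PTPN12, a phosphatase that acts on p130Cas (-4.39 ± 0.56 SE, edgeR adjusted p = 0.000783), CBL, a ubiquitin ligase of active kinases (-1.57 ± 0.41 SE, edgeR adjusted p = 0.0129), and PAG1, the membrane adaptor that recruits CSK (-1.01 ± 0.30 SE, edgeR adjusted p = 0.0242). The PTPN12 sum was low, at 9.48, 16.7 and 10.2 CPM in DMSO and 0.933, 0.370 and 0.308 CPM in osimertinib DTP, so the size of its fold change is uncertain. CRKL, an adaptor that binds p130Cas, also fell (-1.90 ± 0.45 SE, edgeR adjusted p = 0.00928), as did BLK, a kinase of the family (-1.43 ± 0.33 SE, edgeR adjusted p = 0.00793).

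At promoters, 37 of the 49 genes had a tested sum. None was called in osimertinib DTP. In the combination against DMSO, RAPGEF1, an exchange factor recruited by CRK adaptors (1.57 ± 0.29 SE, edgeR adjusted p = 0.0092), and PARVA, a partner of integrin-linked kinase (1.20 ± 0.32 SE, edgeR adjusted p = 0.0359), rose, and TNS4, a tensin of focal adhesions, fell (-1.60 ± 0.33 SE, edgeR adjusted p = 0.0145). The family members FGR and LCK, known from blood cells, had no annotated promoter or distal region with a tested sum.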

How the data were processed

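H3K27ac ChIP-seq libraries of H1975 cells were compared in 3 groups of 3 replicates taken from the sample titles, which the labels call biological triplicates. The authors deposited whole-number read counts, not normalized, for all regions and for an annotated subset whose selection rule is not given in the sources used here. They also deposited 1 peak list per library, with a fold enrichment ratio and p and q as −log10 values, and these were used only to see whether a region overlapped a peak by at least 1 bp. The submitters' processing notes name hg38, BWA 0.7.17, MACS2 2.2.6, featureCounts 2.0.0 and ChIPseeker 1.29.1, without roles. RefSeq tables of GRCh38.p14 gave gene bounds and promoter sequences for 4 of the 7 genes.

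All regions were fitted at once with edgeR 4.0.16 in R 4.3.3 (filterByExpr with a minimum count of 10, TMM, robust glmQLFit, 1 mean per group), and p-values were adjusted with the Benjamini-Hochberg method at 0.05. Counts summed per gene over promoter (within 1 kb) and distal regions were fitted the same way. Levels are CPM on TMM-scaled library sizes, all regions having 1 width. The fit was also run on simulated counts with known large changes, placed only at regions with enough counts. That simulation used the same spread at every region and no libraries of raised promoter share, so it does not cover calls at low counts. Alternatives used DESeq2 1.42.0, limma 3.58.1, other scaling and filters, and fits that left libraries out. The replicate numbers paired osimertinib DTP with DMSO by the rule of a correlation over 0.1 in every pair (0.334, 0.355 and 0.324 between deviations of same-numbered libraries). What that number stands for is not given in the labels.

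For each gene the highest promoter region, the highest distal region and up to 2 called regions per comparison were named, as were up to 3 other pathway genes per direction, and further regions and genes were named after their values were seen. The members and gene lists were chosen with earlier results of these data known. Precision is limited by the counts per library, which were 10 or fewer at some regions.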

Additional observations from a re-analysis of the deposited data

How the results depend on the processing

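Counts of called members are given as higher and lower. In osimertinib DTP against DMSO the 3 and 11 regions became 6 and 11 under DESeq2, 13 and 12 with only the libraries of both groups (beside 13.6% and 12.8% of all regions), 15 and 14 under voom with quality weights (beside 16.9% and 15.0%), 0 and 2 at an adjusted p under 0.01, and 13 and 14 without both libraries of raised promoter share. Leaving out 1 library gave 0 to 13 and 1 to 12, while the shares of all regions ranged from 0.407% to 14.2% and from 0.294% to 12.7%. For the combination against DMSO the 4 and 4 regions became 14 and 20 under voom (beside 23.8% and 24.9%) and 14 and 17 without both libraries (beside 22.8% and 19.8%). At an adjusted p under 0.01 they were 2 and 1 (beside 3.06% and 3.14%). With only the libraries of both groups they were 4 and 2 (beside 5.46% and 5.97%). Leaving out 1 library gave 2 to 11 and 1 to 16, while the shares of all regions ranged from 2.4% to 18.4% and from 2.76% to 17.3%. For the combination against osimertinib DTP the counts of 0 and 0 became 1 and 5 under voom (beside 1.88% and 1.79%). They became 1 and 3 without both libraries (beside 1.13% and 0.982%), and stayed at 0 when 1 library was left out. The replicate block, used because the numbers paired osimertinib DTP with DMSO, gave 2 and 9 regions there (beside 5.34% and 5.07%). It lost the LYN promoter call and those at the PTK2 regions starting at 141037515 and 141043540. In the combination against DMSO, where the numbers did not pair the libraries, it gave 4 and 3 (beside 7.88% and 9.63%). The cause of these moves was not tested, except that leaving out a library leaves fewer samples.

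For promoter sums, LYN stayed called higher in the combination against DMSO under each alternative, and 0 or 1 was called higher in osimertinib DTP when 1 library was left out. Lower promoter sums went from 0 to 1 in osimertinib DTP under voom and without both libraries, from 0 to 2 in the combination against DMSO under both and from 0 to between 0 and 2 when 1 library was left out, and from 0 to 1 in the combination against osimertinib DTP without both libraries. For distal sums, the 2 called higher in osimertinib DTP became 1 without TMM, 1 without both libraries and 1 with introns and intergenic regions only, which drops the downstream regions of FYN, and were 1 to 2 when 1 library was left out. With that narrower class 0 distal sums were called higher in the combination against DMSO, in place of 1. The distal sum of PTK2 was called lower there under DESeq2, without TMM, under voom and without both libraries, for a count of 1 in each, and in 0 to 1 of the sums when 1 library was left out. DESeq2 called 1 distal sum higher in the combination against osimertinib DTP.

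None of the fold changes that changed sign was called. Without both libraries, under voom and without the library of raised promoter share in the group compared, those of the promoter regions turned negative. At YES1 they were -0.53, -0.20 and -0.50 in osimertinib DTP and -0.18, -0.15 and -0.27 in the combination, at SRC -0.46, -0.22 and -0.43, then -0.64, -0.51 and -0.71, and at BCAR1 -0.55, -0.33 and -0.52, then -0.76, -0.76 and -0.84, in the same order. With a loess offset BCAR1 turned to -0.0678 and -0.0445. The distal SRC region at 37406346 turned in osimertinib DTP to -0.0414 under DESeq2, -0.0766 without TMM, -0.0204 with annotated regions alone, -0.22 under voom and -0.43 without both libraries. That at the CSK promoter in the combination turned to -0.70 under voom, -0.84 without replicate 3 and -0.76 without both libraries, and that at the PTK2 promoter, chr8:141001385-141001886, to -0.0615 without replicate 3. Over the fits that left out 1 library, these ranged from -0.50 to 1.09 in osimertinib DTP and -0.27 to 0.75 in the combination for YES1, from -0.43 to 0.81 and -0.71 to 0.76 for SRC, from -0.52 to 0.82 and -0.84 to 0.83 for BCAR1, from -1.36 to 0.31 and -0.0615 to 1.17 for PTK2, from -0.84 to 1.12 in the combination for CSK, and in osimertinib DTP from -0.41 to 0.52 at the distal SRC region and from -0.64 to 0.24 at the highest distal LYN region. Without TMM the median fold change over all tested regions, on the log2 scale, moved from 0.23 to -0.02 in the combination against DMSO. Where a count was under 10 in a library, as at FYN in DMSO, depth limits how well a fold change can be told.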

Other observations

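The whole count table held more regions inside the member genes than the annotated table. It had 41 within LYN, of which 19 were annotated, 25 and 17 within BCAR1, 21 and 4 within CSK, 16 and 4 within SRC, 14 and 5 within PTK2, 6 and 0 within FYN and 3 and 2 within YES1. Of the 38 tested regions within LYN, 3 were called higher and none lower by edgeR in osimertinib DTP, beside 5.58% and 5.13% of all tested regions. In the combination against DMSO, 1 was called higher and 1 lower, beside 9.05% and 9.01%. No region within SRC, YES1, CSK or BCAR1 was called in any of the 3 comparisons, so the called BCAR1 region lay outside the gene. In CSK, 2 of the annotated regions were paired with MIR4513, a microRNA gene.

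The distal member regions had a different highest library from the promoters. Of 29 distal regions, 13 were highest in DMSO replicate 2 and 2 in combination replicate 3, whereas of 28 promoter regions 2 were highest in DMSO replicate 2 and 18 in combination replicate 3. The 13 lay in the run upstream of PTK2, in the neighbouring regions deep in LYN and at the called BCAR1 region. Neighbouring regions are not replicates, and the share over all distal regions was not taken. DMSO replicate 2 was also the library without which the most calls in osimertinib DTP were lost, and whether these facts are linked was not tested.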
